A study of Mus musculus with 6 samples.

Results

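The transcription factors that give the gonad its identity were followed in mouse ovarian tumours grown with 17β-estradiol (E2) or placebo. The group held 10 genes, Nr5a1, Nr5a2, Nr0b1, Gata4, Gata6, Wt1, Lhx9, Emx2, Foxl2 and Sox9, taken from 19937 genes that had a probe set of their own on the array. Each of the 10 had 1 such probe set. The rule lists them by name and uses no measured value, but the group was chosen with earlier results of these data known. Its counts are therefore not those of an unselected group.

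In the embryo, Wt1, Lhx9, Emx2 and Gata4 act in the early genital ridge, where Nr5a1 is switched on, and the ridge can then form either an ovary or a testis. Nr5a1 and Nr5a2 are nuclear receptors that bind DNA as monomers and drive genes of steroid hormone synthesis, and Nr0b1 is an atypical receptor without a DNA-binding domain of the usual kind that holds them back. Gata4 and Gata6 work beside Nr5a1 in the somatic cells of the gonad. Sox9 directs the testis and Foxl2 keeps the ovary from taking the testicular course.

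RNA came from 6 tumours, 3 from SCID mice with E2 pellets and 3 from SCID mice with placebo pellets, 1 array each. Tumours of both groups grew from MASE2 cells, a line taken from the ascites of a tgCAG-LS-TAg mouse that had itself received E2, in which injection of adenovirus carrying Cre under the ovarian bursa switched on the SV40 large and small T antigens in the ovarian surface epithelium. All tumours thus share 1 line with the T antigens and an earlier exposure to E2, and the hosts lack mature T and B cells but keep macrophages and other innate cells. Pellets and cells were given together, and each tumour was taken when its host became unwell. The labels give neither the age and sex of the hosts nor the E2 dose. Values are log2 intensities made by RMA, a method that summarises the probes of a gene on the log2 scale. With 3 arrays a group, precision is limited.

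The tumour of placebo replicate 3 stood apart from the other 5. Its Pearson r with them across all genes, which are not independent replicates, was 0.857 to 0.865, against 0.960 to 0.994 among the others. The 15 intestinal epithelium markers were each highest in it, with a summed linear intensity of 22334, against 307 to 354 in the E2 tumours and 323 and 321 in placebo replicates 1 and 2. In the comparison of E2 with placebo, limma called 0 of the 15 (1 at an unadjusted p under 0.05), and those of smallest p were Lgr5 (change -0.71, adjusted p = 0.221), Alpi (-1.60, 0.555) and Sis (-2.34, 0.559). Nr5a2, Sox9, Gata4 and Gata6 are known to be expressed in the gut as well as in the gonad. Of the 10 factors, 3 were highest in placebo replicate 3 (Nr5a2, Foxl2 and Sox9) and 4 were lowest there (Wt1, Lhx9, Emx2 and Gata6). Results for the factors are therefore given with and without this tumour, and the part of the intestinal signal in any of them was not tested.

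**Figure D1:**
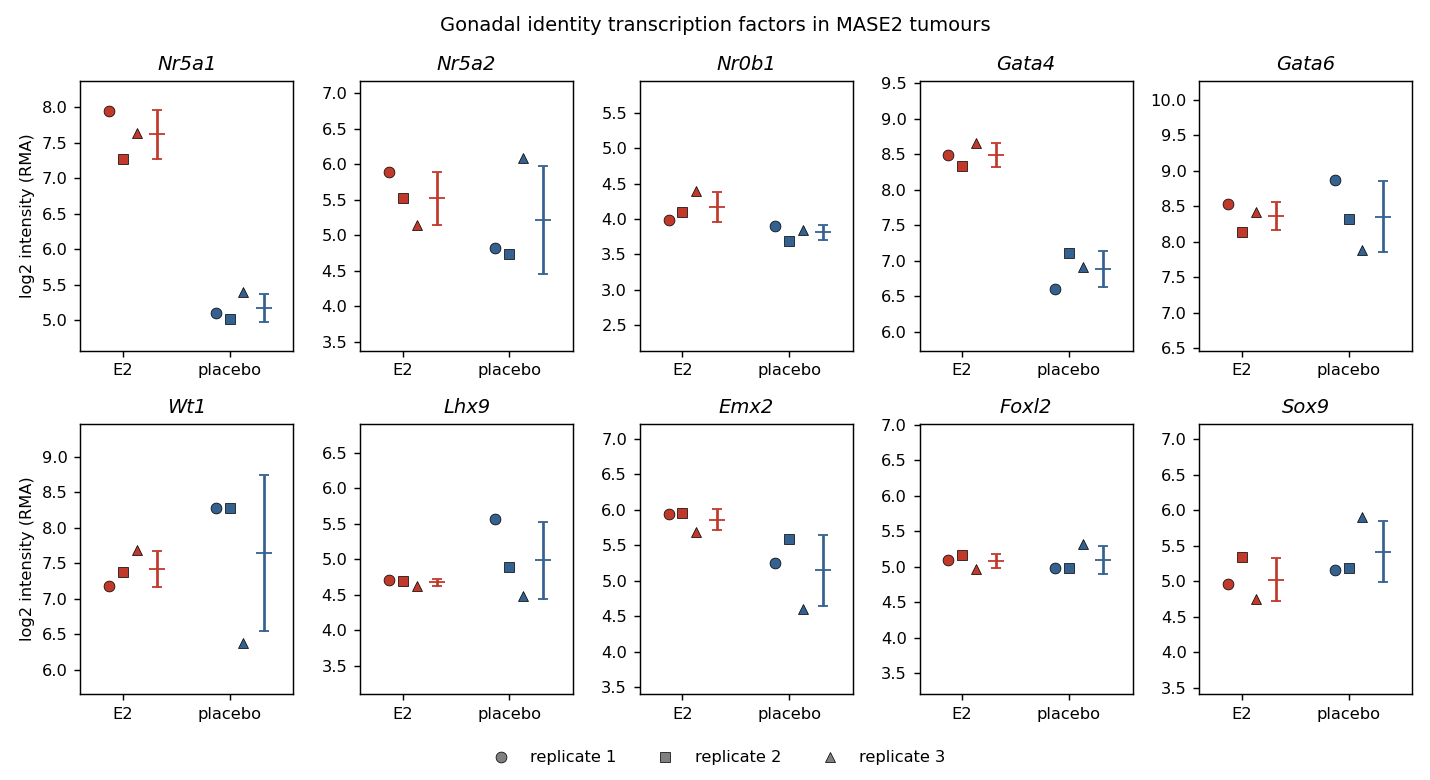
Log2 intensity of the 10 factors in each tumour, with E2 tumours left and placebo tumours right in each panel; every panel spans the same number of log2 units. Symbols mark the replicate number, and the bar beside each group is its mean ± SD (n = 3). Nr5a1 and Gata4 are set apart between the groups, and the triangle of placebo replicate 3 lies away from the other placebo tumours for Nr5a2, Wt1, Emx2 and Sox9.

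With E2, 2 of the 10 factors were higher at a limma adjusted p under 0.05, Nr5a1 and Gata4, and 0 were lower. Over all 19937 genes, 1.06% were called higher and 0.326% lower. Of the 8 factors that were not called, 2 had an unadjusted p under 0.05, against 3298 of all genes (16.5%), called ones included. The values of 4 factors (Nr5a1, Gata4, Emx2 and Nr0b1) did not overlap between the groups and lay higher with E2, where 14.9% of all genes did so. For 0 factors the groups were apart with lower values in E2, as for 11.4% of all genes. The median change of the 10 was 0.15 log2 units, beside -0.0087 over all genes. Without placebo replicate 3 the calls were 3 higher (Nr5a1, Gata4 and Nr5a2) and 1 lower (Wt1), while 6.4% of all genes were called higher and 5.21% lower.

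Nr5a1, which encodes the steroidogenic factor SF-1, showed the widest separation of the 10. Its log2 intensity was 7.95, 7.27 and 7.64 in the E2 tumours, against 5.11, 5.02 and 5.40 in the placebo tumours. Every E2 tumour lay at least 1.87 log2 units above every placebo tumour. The means were 7.62 ± 0.34 with E2 and 5.17 ± 0.20 with placebo (SD, n = 3 each), a change of 2.45 (SE 0.20, 95% confidence interval 1.96 to 2.93), or 5.45-fold, with a limma adjusted p of 0.00731. An exact two-sided permutation test of 3 against 3 gave p = 0.10, the smallest it can give. The change was 2.56 without placebo replicate 3 (adjusted p = 0.000216). Of the fits that left out 1 tumour, only that without E2 replicate 3 ended the call (change 2.44, adjusted p = 0.0674), and over the 14 alternatives run for this gene the adjusted p ranged from 0.000216 to 0.0674. In these bulk tumours, more cells that express the gene cannot be told apart from more RNA per cell.

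Nr5a2, which encodes the close relative LRH-1 of granulosa cells, liver, pancreas and gut, did not pass the test. It measured 5.89, 5.52 and 5.15 with E2, against 4.82, 4.74 and 6.09 with placebo, so the highest value of all came from placebo replicate 3 and the other placebo tumours lay below every E2 tumour. The change was 0.30 log2 units (95% confidence interval -0.68 to 1.28, adjusted p = 0.728). Without placebo replicate 3 it was 0.74 (SE 0.19, adjusted p = 0.0458), and the adjusted p over 14 alternatives ran from 0.0458 to 0.947. Markers of pancreatic acinar cells, another cell type that expresses Nr5a2, had nearly the same summed intensity in each tumour, 211 to 226 with E2 and 212, 223 and 236 in placebo replicates 1, 2 and 3. Of the 9 measured, 0 were called and 0 had an unadjusted p under 0.05, with Rbpjl (change -0.23, adjusted p = 0.344), Ctrb1 (0.26, 0.437) and Ptf1a (-0.16, 0.471) at the smallest p. On every array, 2 of the 9 lay under the lower quartile of the gene values, so they were not shown to be above background. The part of acinar cells in the Nr5a2 values was not tested.

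On the log2 scale, the difference between Nr5a1 and Nr5a2 within each tumour was 2.07, 1.75 and 2.50 with E2, against 0.29, 0.28 and -0.69 with placebo. All 3 E2 values lay above the placebo values, and the E2 effect on Nr5a1 exceeded that on Nr5a2 by 2.14 log2 units. The exact two-sided permutation p was 0.10, or 0.15 adjusted over the 3 pairs of factors compared. Without placebo replicate 3 the excess was 1.82.

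Nr0b1, which encodes the corepressor DAX1, stayed low. It measured 3.99, 4.10 and 4.40 with E2, against 3.90, 3.69 and 3.84 with placebo. Its value was under the lower quartile of the gene values of its own array (4.22 to 4.39 over the 6 arrays) in 2 of 3 E2 tumours and 3 of 3 placebo tumours, so it was not shown to be above background there. The groups were apart by 0.090 log2 units, but the change of 0.35 (SE 0.13) did not pass the test (adjusted p = 0.267, or 0.144 without placebo replicate 3, the lowest of 13 alternatives).

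Gata4, a zinc finger factor needed for the genital ridge and for granulosa cell function, rose with E2. Its log2 intensity was 8.48, 8.33 and 8.66 in E2 tumours, against 6.61, 7.12 and 6.91 in placebo tumours. The groups were 1.21 log2 units apart at their nearest values, and placebo replicate 3 lay between the other placebo tumours. The means were 8.49 ± 0.16 with E2 and 6.88 ± 0.26 with placebo (SD, n = 3 each), and the change of 1.61 (SE 0.16, 95% confidence interval 1.22 to 2.00), or 3.06-fold, had a limma adjusted p of 0.0136. It was 1.63 without placebo replicate 3 (adjusted p = 0.000998). Leaving out E2 replicate 1, 2 or 3 ended the call, with changes of 1.61, 1.69 and 1.53 and adjusted p of 0.10, 0.0712 and 0.0915, and the range over 14 alternatives was 0.000998 to 0.127.

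Gata6, which shares many gonadal tasks with Gata4, was level between the groups. It measured 8.53, 8.14 and 8.41 with E2, against 8.87, 8.31 and 7.88 with placebo, so the placebo tumours lay on both sides of the E2 tumours. The change was 0.0054 log2 units (95% confidence interval -0.63 to 0.64, adjusted p = 0.993). Its sign was not stable and was negative without placebo replicate 3 (-0.23, adjusted p = 0.497), under repeated quantile normalization (-0.14) and with array weights (-0.22).

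Within each tumour, the difference of Gata4 minus Gata6 was -0.041, 0.19 and 0.24 log2 units with E2, against -2.26, -1.20 and -0.97 with placebo. The E2 tumours were all above the placebo tumours, and the effect of E2 on Gata4 exceeded that on Gata6 by 1.61 log2 units (exact two-sided permutation p = 0.10, 0.15 adjusted over 3 pairs), or by 1.86 without placebo replicate 3. Other GATA genes were not called either. Gata5, which is also a factor of the gut lining, measured 4.73, 4.46 and 4.47 with E2, against 5.08, 5.19 and 6.80 with placebo, and its highest value came from placebo replicate 3 (adjusted p = 0.299, or 0.0165 without that tumour, with a change of -0.58).

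Wt1, a zinc finger factor of the early gonad that the surface epithelium and mesothelium go on expressing, depended most on placebo replicate 3. It measured 7.19, 7.37 and 7.69 with E2, against 8.28, 8.29 and 6.37 with placebo. The third placebo value was the lowest of all 6 and the other placebo tumours were above every E2 tumour. With all tumours the change was -0.23 log2 units (SE 0.54, 95% confidence interval -1.54 to 1.08, adjusted p = 0.856). Without placebo replicate 3, Wt1 fell by 0.87 on the log2 scale (change -0.87, SE 0.15, adjusted p = 0.00852), while leaving out placebo replicate 1 or 2 gave 0.086 and 0.089. The adjusted p ranged from 0.00852 to 0.952 over 14 alternatives.

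Markers of mesothelium and surface epithelium, tissues that express Wt1, were measured beside it. Of 12 measured, Krt7, a keratin of simple epithelia, fell (change -2.36, adjusted p = 0.00445, or 0.0581 without E2 replicate 1, which ended the call) and 0 rose, beside 0.326% and 1.06% of all genes. Without placebo replicate 3, 7 fell and 1 rose, where 5.21% and 6.4% of all genes did. The uroplakin gene Upk3b measured 5.85, 5.40 and 6.0 with E2, against 9.01, 9.99 and 6.51 with placebo (change -2.75, adjusted p = 0.201, or -3.75 and 0.000275 without placebo replicate 3). Aldh1a2, a retinoic acid synthesis enzyme of the same tissue, measured 9.41, 9.48 and 9.46 with E2, against 7.51, 8.45 and 6.41 with placebo (change 1.99, adjusted p = 0.126, or 1.47 and 0.00694 without that tumour). The summed linear intensity of the 12 markers was 1831 to 2131 with E2, against 4060, 3950 and 6278 in placebo replicates 1, 2 and 3. Krt8, Krt18, Krt19 and Calb2 were highest in the third, and Krt8 (11.42) and Krt19 (11.19) weigh most in its sum. Msln (5.96, against 7.09 and 7.45), Upk1b (6.80, against 8.47 and 9.02) and Lrrn4 (6.60, against 9.28 and 8.58) were lower in the third than in placebo replicates 1 and 2, as Upk3b was. Calb2, another marker of mesothelium, was dimmer than the quartile bound on all 6 arrays. The part of these cells in the Wt1 values was not tested.

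Lhx9 and Emx2 are homeobox genes without which the genital ridge does not grow out into a gonad, and neither passed the test. Emx2 measured 5.94, 5.95 and 5.68 with E2, against 5.25, 5.59 and 4.60 with placebo, groups that were apart by 0.095 log2 units. Its change was 0.71 (SE 0.26, adjusted p = 0.251), and without placebo replicate 3 it was 0.44 (adjusted p = 0.0811, the lowest of 14 alternatives). Lhx9 measured 4.70, 4.70 and 4.62 with E2, against 5.57, 4.89 and 4.48 with placebo. The E2 tumours agreed to within 0.085 log2 units while the placebo tumours spread over 1.09, and the change was -0.31 (SE 0.27, adjusted p = 0.590) or -0.56 without placebo replicate 3 (adjusted p = 0.0935).

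Foxl2, the factor that upholds granulosa cell identity in the ovary, was flat across the tumours. Its values were 5.10, 5.17 and 4.97 with E2, against 4.99, 4.98 and 5.31 with placebo, a range of 0.35 log2 units over all 6. The change of Foxl2 was -0.014 (95% confidence interval -0.32 to 0.29, adjusted p = 0.967), and it was 0.097 without placebo replicate 3, 0.050 after repeated quantile normalization and 0.070 after median centring. Sox9, the testis determinant and also a factor of intestinal crypts, measured 4.96, 5.34 and 4.74 with E2, against 5.16, 5.19 and 5.90 with placebo. Placebo replicate 3 again held the highest value, and the change was -0.40 (95% confidence interval -1.02 to 0.22, adjusted p = 0.485), or -0.16 without it (adjusted p = 0.634).

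The Foxl2 minus Sox9 difference, which sets the ovarian factor against the testicular one, was 0.13, -0.17 and 0.23 log2 units with E2, against -0.17, -0.21 and -0.59 with placebo. The groups overlapped and the mean shift was 0.39 (exact two-sided permutation p = 0.20, also 0.20 adjusted over 3 pairs), or 0.25 without placebo replicate 3.

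**Figure D2:**
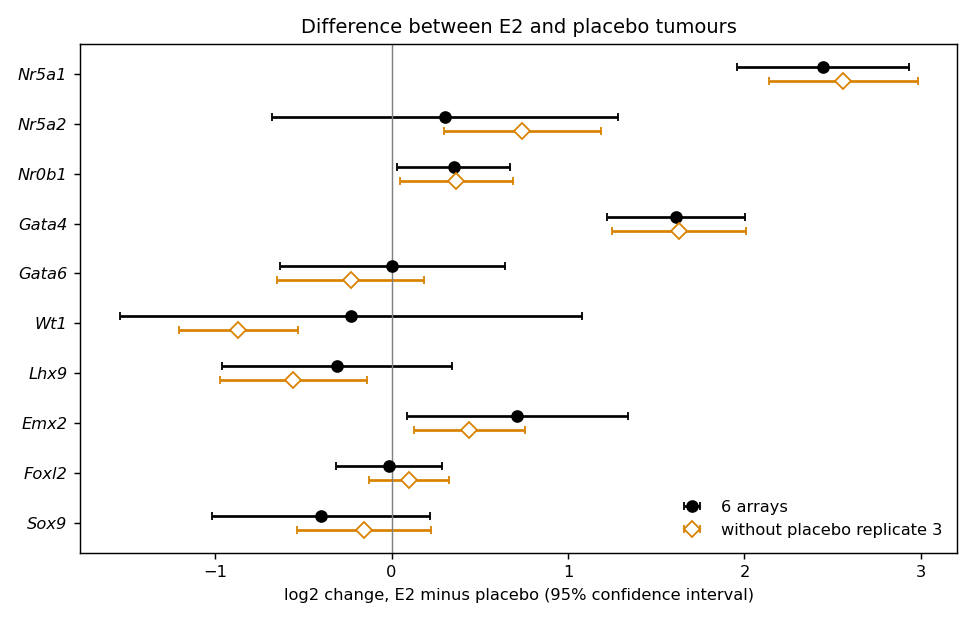
Log2 change (E2 minus placebo, horizontal axis) with its 95% confidence interval from limma for the 10 factors, over all 6 arrays (filled circles) and without placebo replicate 3 (open diamonds). Nr5a1 (2.45 and 2.56) and Gata4 (1.61 and 1.63) hardly move when that tumour is left out, whereas Wt1 goes to -0.87, with all 6 arrays at -0.23, and its interval narrows.

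Known target genes of Nr5a1 were measured for 14 of the 19 listed. Among them 4 rose with E2 and 0 fell on 6 arrays, where 1.06% of all genes were called higher and 0.326% lower. Without placebo replicate 3, 8 rose and 0 fell, a fit in which 6.4% of all genes were called higher and 5.21% lower. In 9 of the 14, the E2 values lay above all placebo values, as for 14.9% of all genes. The list was drawn up with earlier results for Inha, Cyp11a1, Hsd3b1, Star, Fshr and Amh known, so its count is not independent support of a direction. Its median change was 0.59 log2 units, or 0.64 without placebo replicate 3, beside -0.0087 and -0.011 over all genes.

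Cyp11a1, which makes pregnenolone out of cholesterol, measured 8.76, 8.33 and 8.35 with E2, against 4.10, 4.33 and 4.24 with placebo. Inha, the inhibin alpha subunit, measured 9.31, 9.15 and 9.45 with E2, against 5.44, 5.55 and 5.49 with placebo. Both rose (adjusted p = 0.000442 for Cyp11a1 and 0.000223 for Inha) and were called in all 6 fits that left out 1 tumour. Cyp11a1 lay below the lower quartile of genes in 2 placebo tumours. With those values raised to the quartile, it was at least 17.6-fold higher with E2. Fdx1, the ferredoxin that passes electrons to mitochondrial steroid enzymes, measured 7.30, 6.87 and 7.13 with E2, against 5.95, 5.82 and 5.88 with placebo (change 1.22, adjusted p = 0.0163). It kept its call in 3 of the 6 fits that left out 1 tumour and lost it without E2 replicate 1, without E2 replicate 3 and without placebo replicate 1 (adjusted p = 0.0833, 0.117 and 0.0711). Hsd3b1, the next enzyme of the pathway, lay below the lower quartile of genes in every placebo tumour, and was at least 2.03-fold higher with E2 when those values were raised to the quartile (adjusted p = 0.00817 on the measured values, which lost its call without E2 replicate 1 or 3, at 0.0830 and 0.0583). Its probes may share sequence with those of related Hsd3b genes.

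The other Nr5a1 targets were not called on 6 arrays. Star, the cholesterol carrier, measured 5.73, 5.34 and 5.63 with E2, against 4.73, 4.75 and 4.32 with placebo. Its groups were apart, and its adjusted p was 0.0595 with all tumours and 0.00586 without placebo replicate 3. Cyp17a1, the enzyme on the way to androgens, had a change of 0.59 (adjusted p = 0.0649), or 0.60 without placebo replicate 3 (adjusted p = 0.0149). Scarb1, the receptor for lipoprotein cholesterol, had a change of 1.14 (adjusted p = 0.226), or 0.71 without that tumour (adjusted p = 0.0248). Fshr, the receptor of follicle-stimulating hormone, and Mc2r, the adrenal receptor of corticotropin, was dimmer than the quartile bound on all 6 arrays. Amh, the hormone of Sertoli and granulosa cells, measured 4.62, 4.42 and 4.61 with E2, against 4.58, 4.60 and 5.0 with placebo (change -0.18, adjusted p = 0.567).

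**Figure D3:**
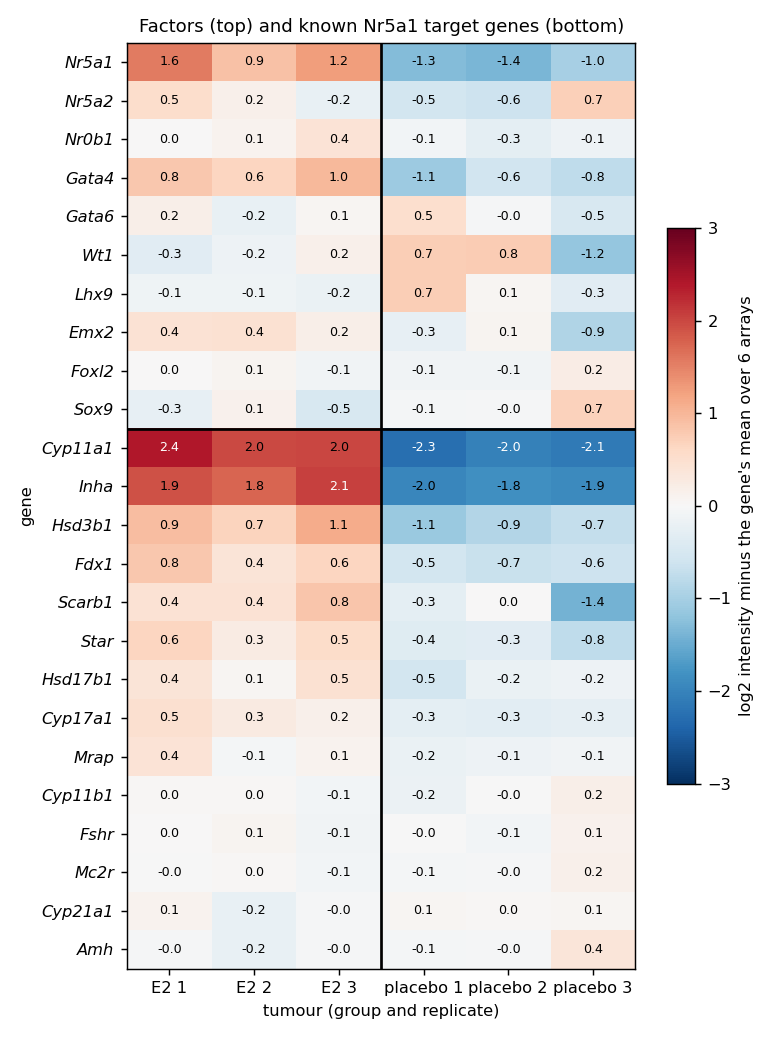
Log2 intensity minus the mean of each gene over the 6 arrays (colour and printed value) for the 10 factors, above the line, and 14 known Nr5a1 target genes, below it and sorted by change. The columns are tumours, E2 left and placebo right. Cyp11a1 and Inha show the same split of the tumours as Nr5a1, with Gata4 fainter, while Fshr and Mc2r stay near 0.

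Promoter sequences are shown because NR5A receptors read the nuclear receptor core motif AGGTCA, so that a reader can see where it stands in factors and targets. Windows of 250 bases before the annotated start, with RefSeq sequence (GRCm38.p6), were searched for 5 of the 10 factors in 6 windows (Nr5a2, Nr0b1, Lhx9, Emx2 and Foxl2). Windows of Nr5a1, Gata4, Gata6, Wt1 and Sox9 were not used here. Also searched were the listed targets Inha, Cyp11a1, Hsd3b1 and Fdx1, the relative Nr0b2, and Amhr2 from the ovarian list, all chosen with their values known. Shown are the windows that hold the core motif, those of Nr5a2, Nr0b1, Inha, Cyp11a1 and Amhr2, with AGGTCA, the longer CAAGGTCA and the GATA motif AGATAA, on either strand, in capitals.
Nr5a2, chr1:136960449-136960698, minus strand: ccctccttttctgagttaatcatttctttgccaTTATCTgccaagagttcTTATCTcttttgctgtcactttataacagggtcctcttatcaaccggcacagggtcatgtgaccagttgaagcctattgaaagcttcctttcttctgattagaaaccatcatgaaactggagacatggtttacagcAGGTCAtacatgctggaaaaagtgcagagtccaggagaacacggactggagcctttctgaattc
Nr0b1, chrX:86191525-86191774, plus strand: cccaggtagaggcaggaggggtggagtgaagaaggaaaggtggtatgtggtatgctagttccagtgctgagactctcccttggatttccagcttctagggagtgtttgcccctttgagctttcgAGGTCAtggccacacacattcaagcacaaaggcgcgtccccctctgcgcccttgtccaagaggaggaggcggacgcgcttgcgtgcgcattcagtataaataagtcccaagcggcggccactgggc
Inha, chr1:75507359-75507608, plus strand: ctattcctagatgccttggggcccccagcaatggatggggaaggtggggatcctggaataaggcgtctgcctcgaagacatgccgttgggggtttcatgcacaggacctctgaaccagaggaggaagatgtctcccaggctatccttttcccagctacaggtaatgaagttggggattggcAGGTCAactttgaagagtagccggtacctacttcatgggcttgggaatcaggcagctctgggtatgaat
Cyp11a1, chr9:58014702-58014951, plus strand: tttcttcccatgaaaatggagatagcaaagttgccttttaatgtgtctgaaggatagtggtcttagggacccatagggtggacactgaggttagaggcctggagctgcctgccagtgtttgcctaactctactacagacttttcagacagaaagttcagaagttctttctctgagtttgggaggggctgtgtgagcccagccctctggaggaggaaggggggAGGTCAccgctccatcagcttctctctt
Amhr2, chr15:102445117-102445366, plus strand: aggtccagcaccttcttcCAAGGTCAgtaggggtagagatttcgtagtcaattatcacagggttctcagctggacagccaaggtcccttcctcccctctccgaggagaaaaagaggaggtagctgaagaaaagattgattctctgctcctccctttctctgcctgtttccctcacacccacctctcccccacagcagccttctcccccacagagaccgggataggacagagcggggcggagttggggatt
The core motif stood 64 bases before the start for Nr5a2, 126 for Nr0b1, 69 for Inha, 28 for Cyp11a1 and 230 for Amhr2. It was found in 14% of all 32851 windows, so a match is common. CAAGGTCA, the extended NR5A site, was found in 1.33% of windows and here for Amhr2 alone. AGATAA was found in 9.99% of windows and at 2 places for Nr5a2, and at 1 place in the Hsd3b1 window, which is not shown. The oestrogen response element GGTCANNNTGACC, whose arms share the letters GGTCA with the core motif, was found in 0.0639% of windows and in 0 of those of the factors. The core motif was in windows of Inha and Cyp11a1, which rose on 6 arrays, and of Nr5a2, Nr0b1 and Amhr2, which were not called there. Without placebo replicate 3, Nr5a2 and Amhr2 were called higher. The core motif was in 0 windows of Hsd3b1, Fdx1 and Nr0b2, which also rose on 6 arrays. It was in 0 of Lhx9, Emx2 and Foxl2, and not in the other window of Nr5a2 or of Cyp11a1.

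Among 9 close relatives of the factors (median change 0.063), Nr0b2 alone passed the test on 6 arrays, where 1.06% of all genes were called higher. Nr0b2 encodes SHP, a relative of DAX1 and a repressor of NR5A receptors known chiefly from liver. It measured 6.0, 6.05 and 5.93 with E2, against 4.62, 4.64 and 4.88 with placebo. The E2 tumours were all higher, by 1.28 log2 units on average (SE 0.10, adjusted p = 0.00708), and by 1.36 without placebo replicate 3. The call was lost without E2 replicate 1, 2 or 3 (adjusted p = 0.0699, 0.0617 and 0.0560).

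Of 11 other regulators of the early gonad (median change -0.16), 0 passed limma on 6 arrays in either direction, and without placebo replicate 3, Nr2f2, the COUP-TFII gene of gonadal stroma, fell (change -0.68, adjusted p = 0.0108). In that fit, 5.21% of all genes were called lower. An unadjusted p under 0.05 was found for 3 of the 11, beside 16.5% of all genes. They were Zfpm1, a partner of GATA factors (change -0.54), Cited2, a partner of Wt1 in switching on Nr5a1 (-0.30), and Gadd45g, a stress signalling gene that acts upstream of Sry (1.39). Gadd45g measured 7.82, 7.65 and 7.81 with E2, against 5.65, 7.17 and 6.30 with placebo, groups that did not overlap (adjusted p = 0.150). Zfpm2, the FOG2 partner of Gata4 in the gonad, measured 5.38, 5.25 and 5.45 with E2, against 5.58, 6.0 and 5.13 with placebo (adjusted p = 0.654).

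Genes of the ovarian and of the testicular course were followed beside Foxl2 and Sox9. Of 14 ovarian genes (median change -0.013), 0 were called on 6 arrays, while 2 rose (Bmp2 and Amhr2) and 1 fell (Rspo1) without placebo replicate 3. In the fit without that tumour, 6.4% of all genes were called higher and 5.21% lower. Rspo1, the secreted activator of WNT signalling in the early ovary, measured 5.29, 5.40 and 5.24 with E2, against 6.98, 7.60 and 5.96 with placebo (change -1.53, adjusted p = 0.142, or -1.98 and 0.000486 without that tumour). Amhr2, the receptor of Amh, measured 7.08, 7.46 and 7.82 with E2, against 5.91, 6.16 and 5.10 with placebo (change 1.74, adjusted p = 0.0704, or 1.42 and 0.00406 without that tumour). Their groups did not overlap, and they lay on opposite sides. Irx3, a homeobox gene of granulosa cells, measured 5.45, 5.58 and 5.36 with E2, against 5.21, 4.96 and 4.98 with placebo (change 0.42, adjusted p = 0.146, or 0.38 and 0.0763 without that tumour). Bmp2, a signal of the young ovary, had a change of 0.92 (adjusted p = 0.194, or 1.23 and 0.00129 without that tumour). It measured 4.14 and 4.20 in placebo replicates 1 and 2, both under the quartile bound and so not shown to be above background. Wnt4, which acts beside Rspo1, had a change of 0.18 (adjusted p = 0.403).

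Of 13 testicular genes (median change -0.18), 0 were called on 6 arrays and 2 rose and 0 fell without placebo replicate 3, namely Fgf9 and Dhh. In the fit without that tumour, 6.4% of all genes were called higher and 5.21% lower. Of the 13, 2 had a positive change and the other 11 a negative one. Fgf9, the growth factor that sustains Sox9, measured 6.33, 6.75 and 6.63 with E2, against 5.11, 5.63 and 5.83 with placebo, which did not overlap (change 1.05, adjusted p = 0.0869, or 1.20 and 0.00511 without that tumour). Dhh, the signal of Sertoli cells, measured 5.02, 5.08 and 5.06 with E2, against 4.53, 4.53 and 5.01 with placebo (change 0.37, adjusted p = 0.303, or 0.53 and 0.00760 without that tumour). Fgfr2, a receptor of Fgf9, measured 5.60, 5.40 and 5.77 with E2, against 6.04, 5.94 and 6.32 with placebo (change -0.51, adjusted p = 0.171, or -0.40 and 0.0811 without that tumour). Aard measured 4.60, 4.43 and 4.23 with E2, against 4.73, 4.74 and 4.69 with placebo (change -0.31, adjusted p = 0.259, or -0.32 and 0.143 without that tumour). Both lay lower with E2 with no overlap between the groups, and neither passed the test. An unadjusted p under 0.05 on 6 arrays was found for 7 of the 14 ovarian and 3 of the 13 testicular genes, beside 16.5% of all genes.

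Granulosa cells, which normally express Nr5a1 and Gata4, were followed by their markers. Of 8 measured granulosa cell markers (median change 1.17), 3 rose and 0 fell, namely Inha, the inhibin beta subunit gene Inhbb (change 2.84, adjusted p = 0.0358) and the gap junction gene Gja1 (2.28, adjusted p = 0.0324). Of all genes, 1.06% were called higher and 0.326% lower. The summed linear intensity of the 8 markers was 2774 to 2841 with E2, against 666, 700 and 419 in placebo replicates 1, 2 and 3. Gja1, the brightest of them with E2 (10.64, 10.69 and 10.49, against 8.75, 8.61 and 7.61 with placebo), weighs most in the E2 sums, followed by Inha and Inhbb. Inha is also on the list of Nr5a1 targets, so the 2 counts are not separate. A positive change was found for 5 of the 8. Fst lay lower with E2 with no overlap (change -0.27, adjusted p = 0.208). Fshr was dimmer than the quartile bound on all 6 arrays, and Foxl2 and Amh were not called. The Inhbb call was lost in 4 of the 6 fits that left out 1 tumour (adjusted p up to 0.184) and kept without placebo replicates 2 or 3. The Gja1 call was lost in 5 of them (up to 0.186) and kept without placebo replicate 3. The part of granulosa-like cells in the Nr5a1 and Gata4 values was not tested.

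Adrenal cortex, another tissue of Nr5a1, was represented by 6 markers, of which 0 were called by limma and 1, Star, had an unadjusted p under 0.05. Next in p were Mrap (change 0.30, adjusted p = 0.340) and Cyp21a1 (-0.10, 0.654). Their summed intensity was 155 to 184 with E2, against 133, 142 and 143 with placebo, and Mc2r was dimmer than the quartile bound on all 6 arrays. For macrophage markers the sum was 939 to 1301 with E2, against 3083, 2845 and 1399 with placebo, and for endothelial markers 273 to 343 with E2, against 420, 465 and 445 with placebo. By limma on 6 arrays, 0 of 8 were called in either of these lists (2 and 5 at an unadjusted p under 0.05, beside 16.5% of all genes), and without placebo replicate 3, 6 macrophage and 4 endothelial markers fell, where 5.21% of all genes did. The macrophage markers of smallest p were Lyz2 (change -1.43, adjusted p = 0.0635), Itgam (-0.61, 0.176) and Mrc1 (-0.89, 0.354). The endothelial ones were Pecam1 (-0.65, 0.130), Tek (-0.67, 0.137) and Cdh5 (-0.64, 0.137).

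**Figure D4:**
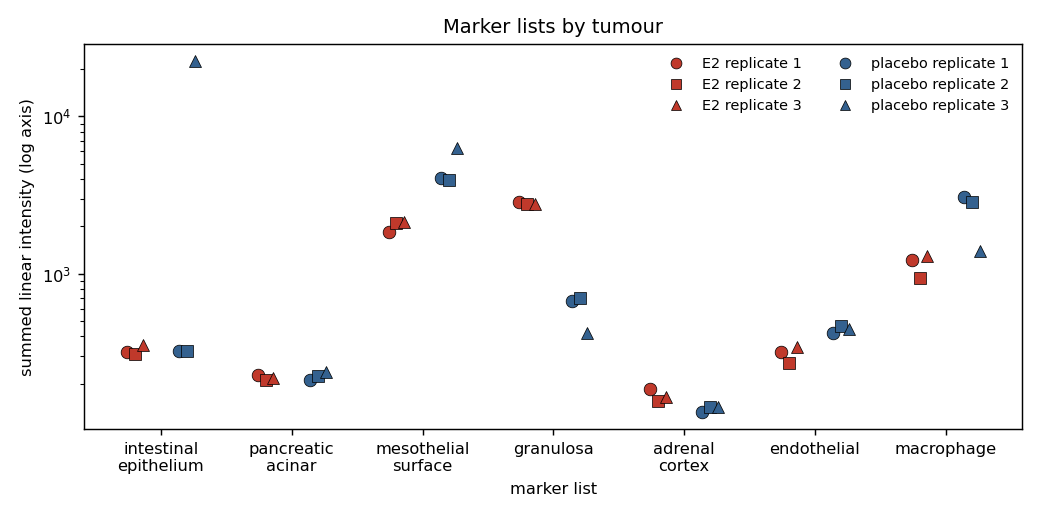
Summed linear intensity of each marker list (log axis) in each tumour, E2 left and placebo right within a list. Intestinal epithelium markers sum to 22334 in placebo replicate 3 and to 307 to 354 elsewhere, and the granulosa list is higher in the 3 E2 tumours (2774 to 2841) than in the placebo tumours (419 to 700). Gja1, Inha and Inhbb are the brightest of that list with E2 and weigh most in its sum there.

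For Nr5a1 and Gata4, the genes of most similar pattern were found by the root mean square difference between their 6 values, each set centred on its own mean. Symbols of predicted genes, clones, pseudogenes and small RNA genes were left out of the search. The likeness is a description of 6 tumours. The genes were picked for it, so their split between the groups and their calls are not independent support. Nearest to Nr5a1 were the transporter gene Slc16a12 (0.16 log2 units), the acyl-CoA synthetase gene Acsbg1 (0.23), the chondroitin sulfotransferase gene Chst11 (0.24) and Cyfip2 (0.24), a gene of the actin regulatory complex. Slc16a12 measured 6.98, 6.78 and 6.91 with E2, against 4.50, 4.30 and 4.51 with placebo, which like Nr5a1 split the tumours into separate groups. Nearest to Gata4 were Papln (0.11), which encodes a matrix glycoprotein, the urea transporter gene Slc14a1 (0.12), the cyclic AMP phosphodiesterase gene Pde7b (0.12) and the organic anion transporter gene Slco3a1 (0.12). Slco3a1 measured 7.75, 7.73 and 7.91 with E2, against 6.0, 6.17 and 6.24 with placebo. Changes of these 8 genes were 1.58 to 2.45 log2 units, and Slc16a12, Acsbg1, Cyfip2 and Slco3a1 kept their call whichever tumour was left out, whereas Chst11, Papln, Slc14a1 and Pde7b kept it in 3 of the 6 fits.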

How the data were processed

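Per the labels' protocols, labelled RNA target of each of the 6 tumours was put on 1 whole-transcript array. The values are log2 intensities that the authors deposited after RMA, a step named in the submitters' processing notes. For its software, version and annotation the sources used here give nothing. RMA compresses changes near background. Groups and replicate numbers came from the sample titles.

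Of 34760 probe sets, 21640 had 1 gene symbol in the platform annotation, 1321 had several and 11799 were not listed there. Symbols of 21553 were matched by gene identifier to RefSeq (GRCm38.p6), which changed 0. The probe set with the highest mean stood for a gene with several, leaving 19937 genes, and no dim gene was removed. The lower quartile of genes on each array, a bound chosen after seeing the data, marks values not shown to be above background. Values above it are not thereby shown to be above background. E2 and placebo were compared with limma 3.58.1 (lmFit and eBayes, R 4.3.3), two-sided, with p adjusted by Benjamini and Hochberg over all genes and a threshold of 0.05. Differences between pairs of factors were tested with exact permutation tests (scipy 1.17.1). The series calls the tumours biological replicates. The limma step was tested on simulated data.

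The factors and the 12 lists (121 symbols, 111 measured) were chosen with earlier results of these data known, and no set test was run. Beside the factors, the genes named were called list members, the 3 of smallest p where a list had none, list members given as not called, and the 4 genes of nearest pattern to each called factor. Alternatives were leaving out each array, the replicate block, a filter at the 25th percentile, the mean of probe sets, all probe sets singly, repeated quantile normalization, median centring, trended robust variance, array weights and a threshold of 0.10.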

Additional observations from a re-analysis of the deposited data

How the results depend on the processing

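The directions of Nr5a1, Gata4, Nr5a2, Nr0b1 and Emx2 (higher) and of Lhx9 and Sox9 (lower) held under every alternative run for them. Leaving out 1 array at a time gave 0 to 3 factors called higher and 0 to 1 lower, 31 to 1276 of all genes called higher and 0 to 1039 lower (0 without E2 replicate 1, where 917 were lower at an unadjusted p under 0.05), and 2 to 13 of the 57 genes of the 5 pathway lists called higher and 0 to 3 lower. The sources used here give no pairing of the tumours by replicate number. Same-numbered arrays had correlations of -0.029, -0.18 and -0.13 in their deviations from the group means, and 0 of 3 E2 arrays correlated best with their own number. With 3 arrays a group and placebo replicate 3 standing apart, these correlations cannot exclude a pairing. With the replicate block, 0 factors were called higher (Nr5a1 2.45, adjusted p = 0.0671; Gata4 1.61, adjusted p = 0.127), 10 of all genes were higher and 0 lower (886 lower at an unadjusted p under 0.05), and 2 list genes were higher. Array weights, which gave placebo replicate 3 a weight of 0.15, called 1026 of all genes higher and 760 lower, and 12 list genes higher and 2 lower. An adjusted p under 0.10 called 543 higher and 193 lower, and 9 list genes higher. Median centring called 363 higher. Leaving out 1 array gave Gata6 changes of -0.23 to 0.26, Wt1 changes of -0.87 to 0.089 and Foxl2 changes of -0.072 to 0.097. Signs turned for Gata6 without placebo replicate 2 (-0.015), placebo replicate 3 (-0.23), E2 replicate 1 (-0.078) or E2 replicate 3 (-0.022), after repeated quantile normalization (-0.14) and with array weights (-0.22), for Wt1 without placebo replicate 1 (0.086) or 2 (0.089), and for Foxl2 without placebo replicate 3 (0.097) or E2 replicate 3 (0.041), after repeated quantile normalization (0.050), after median centring (0.070) and with array weights (0.096). None of these turned values had an adjusted p under 0.05. The filter at the 25th percentile removed Nr0b1, which then had no value. The cause of these shifts was not tested. Fits that left out 1 array also had fewer arrays. Values under the quartile bound limit genes such as Nr0b1, Hsd3b1, Fshr, Mc2r and Calb2. They also limit Cyp11a1 and Bmp2 (2 placebo tumours each) and Star and Slc16a12 (1 placebo tumour each). Other genes may be limited too, since a value above that bound is not thereby shown to be above background. Foxl2 (4.97 to 5.31) and the placebo values of Nr5a1 (5.02 to 5.40) lay near the median of genes on the arrays (5.26 to 5.41).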
